A study of Mus musculus with 106 samples.

Results

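The mouse mitochondrial genome holds 37 genes, which were taken by their Ensembl identifiers as all genes of the mitochondrial chromosome among the 55401 mouse genes counted. They comprise 13 mRNA genes, 2 rRNA genes and 22 tRNA genes, with 28 on the + strand and 9 on the - strand of the reference. Both strands of this small circular genome are transcribed as long precursors from which rRNAs, tRNAs and mRNAs are cut, and all proteins encoded there are subunits of the respiratory chain or of ATP synthase. These mRNAs are translated inside mitochondria by mitochondrial ribosomes, which contain mt-Rnr1 (12S) and mt-Rnr2 (16S) rRNA and nuclear-encoded proteins distinct from those of cytosolic ribosomes. Neurons depend heavily on oxidative phosphorylation, for which the remaining subunits are encoded in the nucleus, translated on cytosolic ribosomes and imported.

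The question addressed here is how these transcripts behave in RiboTag immunoprecipitates (IPs), which capture cytosolic ribosomes carrying the hemagglutinin-tagged protein Rpl22 of cells that express Cre, and whether they differ in Huntington's disease (HD) model mice. HD mice were Hdh Q7/Q200, with an expanded CAG repeat in 1 endogenous huntingtin allele, and controls were Hdh Q7/Q7, in the 129S4 background. In the Gad2, PV and vGluT2 lines the controls were littermates and the mice were about 9 months of age. Mice of the Gad2, PV and vGluT2 lines, controls included, carried 1 floxed Rpl22-HA allele and 1 Cre allele (Gad2-IRES-Cre for GABAergic, PV-IRES-Cre for parvalbumin and vGluT2-IRES-Cre for glutamatergic neurons). In these 3 lines the Cre allele came from the mother, so the maternally inherited mitochondrial genome and the Cre line cannot be told apart. The driver, cross and age of the SST mice, and whether their controls were littermates, are not described in the sources used here. Of the mice with SST+ IPs, 3 of the 5 control but 0 of the 4 HD mice carry numbers of another series in the labels. There were 67 IP and 39 total RNA (input) libraries from 45 mice. The cerebral IPs comprised 6 control and 6 HD libraries for Gad2+, 6 and 5 for PV+, 5 and 4 for SST+ and 6 and 6 for vGluT2+ neurons, and the cerebellar IPs comprised 6 and 6 for Gad2+ and 5 and 6 for vGluT2+ neurons. Each line and region had inputs of 3 controls and 3 HD mice, apart from SST with 4 and 3 and cerebellar vGluT2 with 4 and 4. Cerebrum without olfactory bulb, or cerebellum, was homogenized with detergent and spun at 10000 g, and both the IP and the input were taken from the same supernatant. Material pelleted in this spin is in neither, and an IP pools all cells of the region that expressed Cre at any time.

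Libraries were poly(A)-selected, and totals ran from 21905238 to 107753596 estimated counts (median 35866734). Levels are given as CPM (counts scaled to a common library size) after TMM scaling over all libraries, and lowest, median and highest values are given in that order. Markers of the target cells were higher in the IPs than in the inputs, with median summed levels of Gad1, Gad2 and Slc32a1 of 2529 against 607 CPM in cerebral Gad2+ samples, of 3 PV markers of 1859 against 349 CPM in PV+ samples and of 3 SST markers of 1878 against 247 CPM in SST+ samples. The 3 Purkinje cell markers stood at 7942 against 1951 CPM in cerebellar Gad2+ samples, and the 3 granule cell markers at 2620 against 1048 CPM in cerebellar vGluT2+ samples. For cerebral vGluT2+ samples, Slc17a6 and Slc17a7 summed to 2064 against 1469 CPM. In these bulk samples fewer cells of a type and less RNA per cell cannot be told apart.

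Part of the mitochondrial genome has a near-identical copy in the nucleus, which decides what a count of these genes can mean. On the - strand of chromosome 1 (GRCm38), 7 annotated pseudogenes between chr1:24611535-24616197 match mt-Co1, mt-Co2, mt-Atp6, mt-Co3, mt-Nd3, mt-Nd4l and mt-Nd4 at over 99% identity. Salmon divides reads that match several transcripts by estimation, so the split between a gene and its copy is uncertain. Only 1 base separates the whole 345 nt aligned between mt-Nd3 and its copy Gm28438, and the first 60 bases of both transcripts are shown because they hold it, in capitals (T3C, mt-Nd3 base first, counted from 1 at the start of the transcript). They lie at chrM:9459-9518 on the + strand and at chr1:24613060-24613119 on the - strand, and were read from GENCODE M21 transcripts.
mt-Nd3: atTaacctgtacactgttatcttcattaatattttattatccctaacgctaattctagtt
Gm28438: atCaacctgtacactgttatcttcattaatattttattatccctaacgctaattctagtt
Over its last 483 nt mt-Co1 matches Gm29216 at 99.793%, also with 1 differing base (A1066T). The 60 bases around it, at chrM:6390-6449 and chr1:24616129-24616188, show how little separates them.
mt-Co1: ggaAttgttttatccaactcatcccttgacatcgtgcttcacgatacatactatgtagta
Gm29216: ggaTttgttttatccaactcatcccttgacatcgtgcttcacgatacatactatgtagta

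The complex V genes mt-Atp8 and mt-Atp6 also share sequence with each other, since the end of the first reading frame is the start of the second. The 43 shared bases are shown in capitals at chrM:7917-7969 and chrM:7927-7979, because reads within them could be assigned to either gene.
mt-Atp8: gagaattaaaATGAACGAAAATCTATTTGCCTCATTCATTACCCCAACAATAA
mt-Atp6: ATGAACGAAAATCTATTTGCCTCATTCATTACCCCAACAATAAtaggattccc
Smaller overlaps join mt-Nd4l and mt-Nd4 (7 bases), mt-Atp6 and mt-Co3 (1 base) and, on opposite strands, mt-Nd5 and mt-Nd6 (14 bases).

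Of the counts on each gene and its copy together, over all libraries, the copy held 92.7% for mt-Nd3, 83.8% for mt-Co2, 69.4% for mt-Co3, 27.9% for mt-Nd4l, 17% for mt-Atp6, 13.4% for mt-Co1 and 0.0576% for mt-Nd4. The other 6 mRNA genes and both rRNA genes have no annotated counterpart in this segment, and 8 other nuclear copies of lower identity each held at most 0.0338%. The statements on mt-Nd1, mt-Nd2, mt-Nd5, mt-Nd6, mt-Cytb, mt-Rnr1 and mt-Rnr2 therefore do not rest on this split. Values with the counts of the copy added are given for several results on the other genes and are named as such, and all other values are without it.

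Counts were spread very unevenly over the 37 genes. Only 8 genes were above 0 in every library (mt-Rnr1, mt-Rnr2, mt-Nd1, mt-Nd2, mt-Co1, mt-Nd4, mt-Nd5 and mt-Cytb). Of the 22 tRNA genes, 7 were at 0 in every library, 3 reached 10 counts in any library, and all 22 together never exceeded 178 counts or 0.0286% of a library's mitochondrial counts. Methionine tRNA mt-Tm, located between the glutamine tRNA gene and mt-Nd2, was the highest with up to 175 counts and was above 0 in 38 of 39 inputs but in 6 of 67 IPs.

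Among the mRNA genes, mt-Nd3, a small subunit of complex I at chrM:9459-9806, was the one most often without counts. Its estimated count was 0 in 45 libraries, all of them IPs, and above 0 in all 39 inputs. The zeros were found in every cell type, in 7 of 12 cerebral Gad2+, 6 of 11 PV+, 6 of 9 SST+, 7 of 12 cerebral vGluT2+, 9 of 12 cerebellar Gad2+ and 10 of 11 cerebellar vGluT2+ IPs. In the same libraries the copy Gm28438 was above 0 in all 45 (25, 199 and 4196 counts), no library had both at 0, and the lowest count of mt-Nd3 above 0 in an IP was 28. The opposite allocation occurred in 4 IPs, where mt-Nd3 held 33, 39, 64 and 223 counts and the copy 0. In the inputs mt-Nd3 took 1.80%, 6.37% and 33.5% of the joint counts. Summed with its copy, mt-Nd3 stood at 0.807, 6.64 and 330 CPM in the IPs and at 272, 1088 and 3305 CPM in the inputs. The joint count was above 0 in every library, so a value of 0 for mt-Nd3 is a share of 0 in an estimated split. The bases that mice of the 129S4 background carry at the differing positions are not known here. A mitochondrial genome with the base of the copy would make reads over that base match the copy better, and how this would change the split was not tested.

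**Figure D1:**
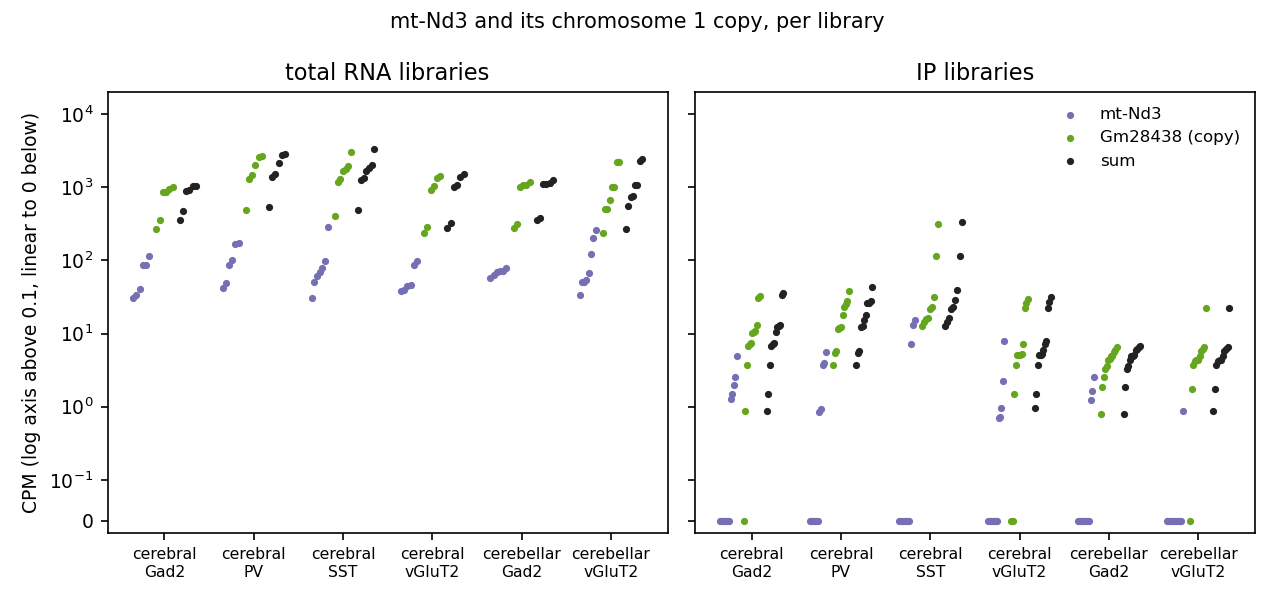
CPM of mt-Nd3 and of its chromosome 1 copy Gm28438 in each library by cell type, for total RNA (left) and IPs (right), on an axis that is logarithmic above 0.1 and linear to 0. In total RNA both genes are above 0 in all 39 libraries with the copy higher, while in 45 of 67 IPs mt-Nd3 lies at 0 and the copy does not.

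Zeros of the other copied genes were fewer, with 7 libraries for mt-Nd4l, 3 for mt-Co2 and 2 each for mt-Co3 and mt-Atp6, and all of them disappeared when the copy was added. The - strand gene mt-Nd6, a complex I subunit with no copy there, was at 0 in 3 IPs, and mt-Atp8 in 1. Those zeros remained.

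Per length, the mRNA levels of cerebral inputs (n = 25) covered a wide range although these genes share precursors. Medians were highest for mt-Atp6 (9735 CPM per kb) and mt-Co1 (7202), the catalytic subunit of cytochrome c oxidase, then for mt-Co3 (4977), mt-Nd1 (4715) and mt-Atp8 (4282). Cytochrome b (mt-Cytb, complex III) had 3048, mt-Nd2 2488, mt-Nd4 2332, mt-Co2 1358, mt-Nd4l 794 and mt-Nd5 563 CPM per kb. The lowest medians were those of mt-Nd3 (200 CPM per kb) and of mt-Nd6 (69.8), the only mRNA gene of the - strand. With the copies added, mt-Co3 led at 16052 CPM per kb, followed by mt-Atp6 (11206), mt-Co1 (8682) and mt-Co2 (8585), and mt-Nd3 rose to 3628. The rRNAs mt-Rnr1 and mt-Rnr2 had 3636 and 3250 CPM per kb in these poly(A)-selected libraries, within the range of the mRNAs.

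In cerebral IPs (n = 44) the order at the top changed, with mt-Co1 highest at a median of 743 CPM per kb, mt-Nd1 at 241 and mt-Cytb at 219.5, while mt-Nd6 had 2.94 and mt-Nd3 0. With the copies added, mt-Co1 stayed highest in these IPs at 889 CPM per kb, followed by mt-Co2 (582) and mt-Co3 (438), and mt-Nd1 came after them. Neighbouring genes in either order overlapped widely between libraries, as the ranges in the plot of levels per length show.

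**Figure D2:**
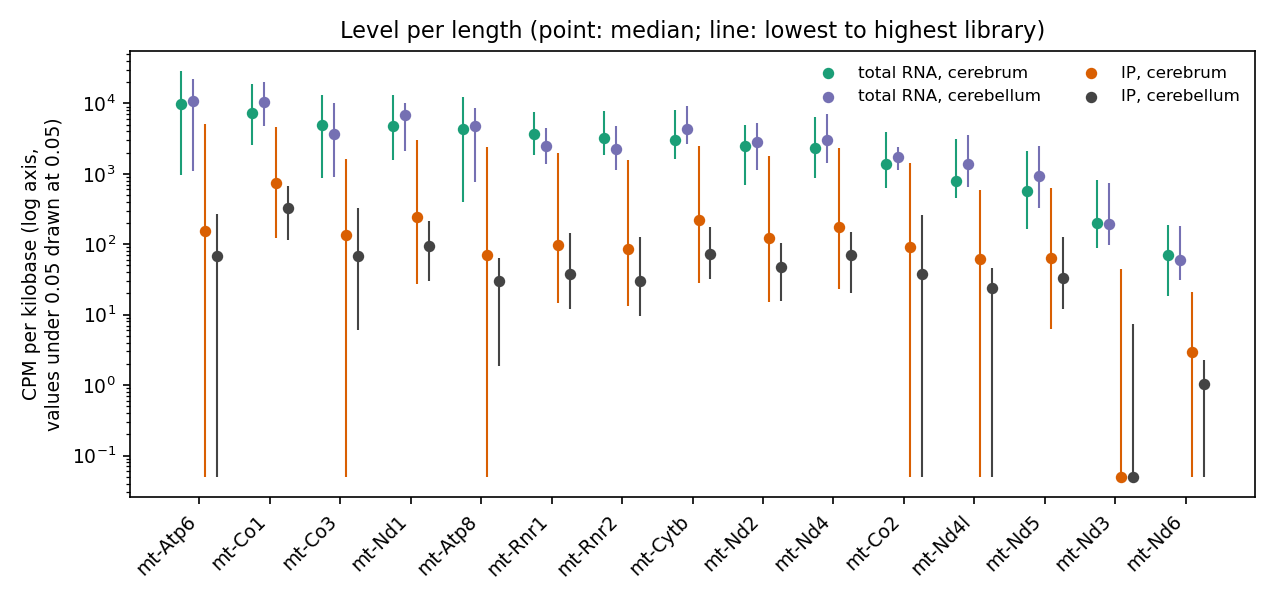
CPM per kilobase of the 15 mRNA and rRNA genes (log axis) in total RNA and IP libraries of cerebrum and cerebellum, with points at the median and lines from the lowest to the highest library, without copies. The median of mt-Nd6 in cerebral inputs, 69.8, lies far under the 7202 of mt-Co1, and the IP medians lie under those of total RNA for all 15 genes.

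The share of a library's counts on mitochondrial genes was lower in the IPs of every cell type than in the corresponding inputs, but to very different degrees. In cerebral Gad2+ samples it was 0.0466%, 0.128% and 0.437% in IPs and 2.05%, 4.25% and 8.94% in inputs. In cerebral vGluT2+ samples it was 0.0414%, 0.0995% and 0.359% in IPs and 2.05%, 4.02% and 7.85% in inputs. In PV+ samples it was 0.279%, 0.578% and 0.930% in IPs and 1.92%, 5.31% and 10.1% in inputs. IP and input did not overlap in these 3 cell types, and most PV+ IPs lay above the Gad2+ and vGluT2+ IPs. In SST+ samples the share was 0.409%, 0.715% and 3.42% in IPs and 2.70%, 5.49% and 7.62% in inputs. Here the groups overlapped because of 1 HD IP (replicate 2, 3.42%), and a control IP (replicate 1) stood at 1.81% while the other 7 were between 0.409% and 0.893%. In cerebellar Gad2+ samples the share was 0.0544%, 0.122% and 0.150% in IPs and 2.54%, 5.19% and 8.91% in inputs. In cerebellar vGluT2+ samples it was 0.0422%, 0.101% and 0.275% in IPs and 3.12%, 6.56% and 9.21% in inputs, so that neither cerebellar cell type overlapped with its inputs.

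**Figure D3:**
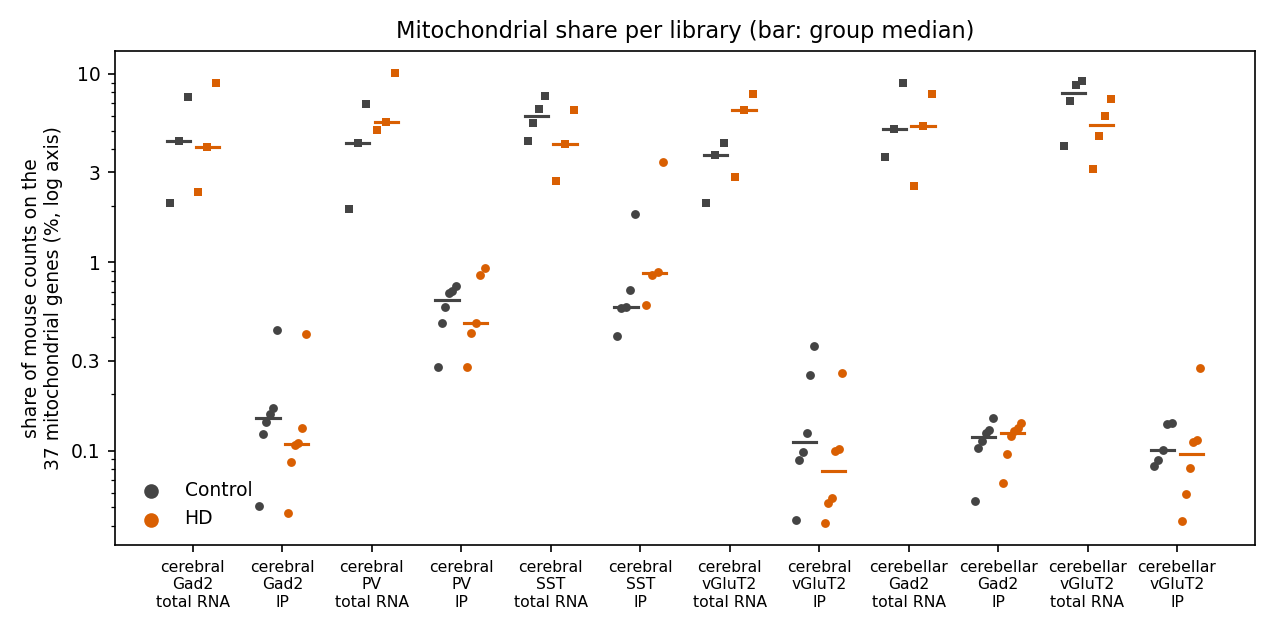
Percent of counts on mitochondrial genes per library (log axis) for IPs and total RNA of the 6 cell types, with bars at group medians. IPs of PV+ and SST+ neurons, with medians of 0.578% and 0.715%, lie between the other IPs and the inputs, and 1 SST+ IP at 3.42% reaches the range of the SST inputs.

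The same was found within animals. In 37 pairs of an IP and an input from the same supernatant, the input had the higher share in 37. The fold between input and IP was 29.9 at the median (range 13.1 to 86.0) for cerebral Gad2+, 37.1 (16.4 to 121) for cerebral vGluT2+, 41.6 (26.5 to 68.8) for cerebellar Gad2+ and 65.3 (27.3 to 102) for cerebellar vGluT2+ neurons. It was 9.92 (6.88 to 13.2) for PV+ and 5.12 (1.89 to 13.2) for SST+ neurons.

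Gene by gene, IPs were compared with inputs by edgeR's quasi-likelihood test with genotype as a covariate and Benjamini-Hochberg adjustment over all genes tested, and genes whose adjusted p did not exceed 0.05 were called. All 13 mRNAs and both rRNAs were tested and called lower in the IPs of all 6 cell types, and in PV+ samples mt-Tm was called as well (log2 fold change -6.88, SE 0.827). Of all genes tested, 22.6% were called lower in cerebral Gad2+, 35.0% in PV+, 30.4% in SST+, 26.6% in cerebral vGluT2+, and in the cerebellum 30.2% in Gad2+ and 30.7% in vGluT2+ IPs. The highest edgeR adjusted p of a mitochondrial gene in any of these comparisons was 0.0073, for mt-Nd5 in SST+ samples. Median log2 fold changes of the 13 mRNAs were -5.08 in cerebral Gad2+, -5.28 in cerebral vGluT2+, -5.82 in cerebellar Gad2+ and -6.08 in cerebellar vGluT2+ samples, but -3.12 in PV+ and -2.30 in SST+ samples, while medians over all genes lay between -0.02 and 0.09. With control mice only, the median was -4.28 in cerebral vGluT2+, -4.76 in cerebral Gad2+ and -2.99 in SST+ samples, so the order of the cerebral Gad2+ and vGluT2+ medians was not stable. Every IP lay below every input for all 15 mRNA and rRNA genes in the Gad2+ and vGluT2+ comparisons, for 13 in PV+ and for 5 in SST+ samples. Among all genes tested such complete separation was found for 11.6% in cerebral Gad2+, 20.5% in PV+, 13.3% in SST+, 12.8% in cerebral vGluT2+, 14.2% in cerebellar Gad2+ and 14.6% in cerebellar vGluT2+ samples.

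**Figure D4:**
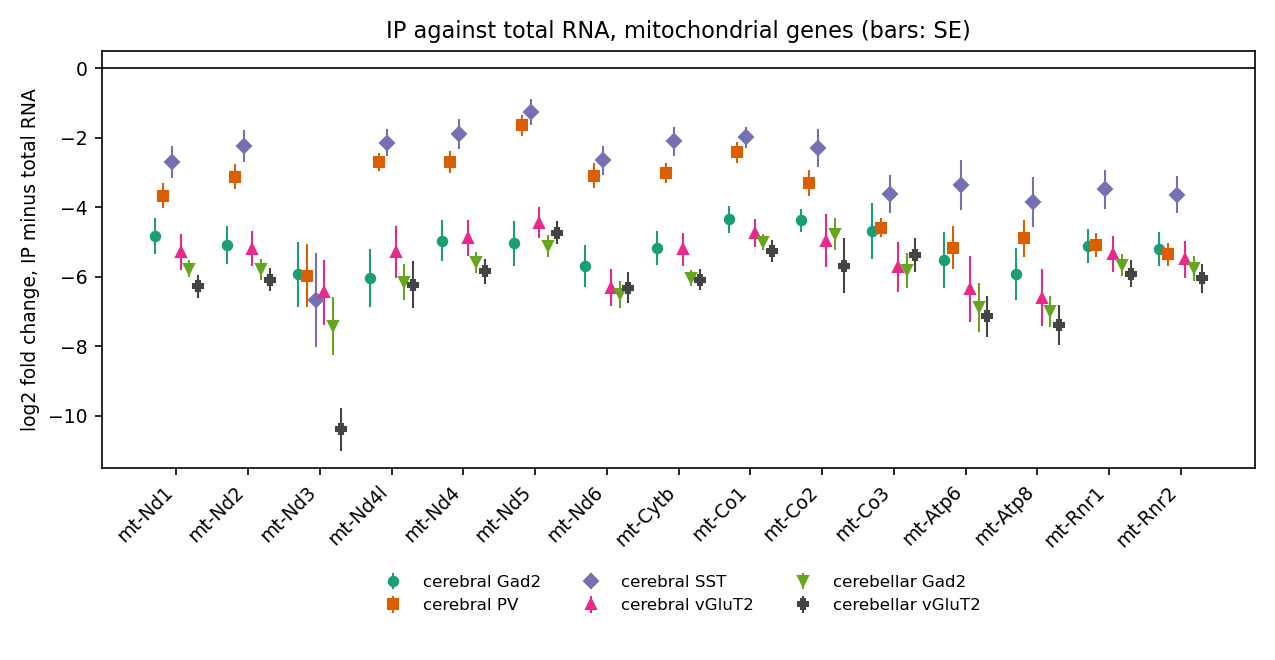
Log2 fold change of IP minus total RNA for the 13 mRNA and 2 rRNA genes in each cell type, with bars for the SE. The Gad2+ and vGluT2+ neurons of both regions lie lowest for most genes, whereas PV+ and SST+ neurons lie higher, up to -1.65 and -1.27 for mt-Nd5.

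Complex I subunits made up 7 of the mRNAs. For mt-Nd1, a core subunit of the membrane arm at chrM:2751-3707, cerebral Gad2+ IPs had 31.2, 104 and 401 CPM and inputs 1519, 3038 and 7639 CPM. PV+ IPs had 190, 444 and 702 CPM, against 1488, 4695 and 12564 CPM in inputs. SST+ IPs had 286, 432 and 2889 CPM, against 2833, 6076 and 7946 CPM. The groups were apart for Gad2+ and PV+, and in SST+ samples 1 IP reached the inputs. Cerebral vGluT2+ IPs had 26.2, 74.6 and 352 CPM, against 1503, 3243 and 6899 CPM. In the cerebellum, Gad2+ IPs had 46.3, 91.4 and 124 CPM against 2017, 4113 and 8327 CPM, and vGluT2+ IPs had 28.8, 75.2 and 205 CPM against 3475, 7258 and 9592 CPM. None of these 3 pairs overlapped, and log2 fold changes of mt-Nd1 were -4.83 (SE 0.515) in cerebral Gad2+, -3.67 (0.361) in PV+, -2.69 (0.462) in SST+, -5.29 (0.529) in cerebral vGluT2+, -5.77 (0.252) in cerebellar Gad2+ and -6.28 (0.328) in cerebellar vGluT2+ samples.

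The other complex I genes did not fall equally. The depletion was smallest for mt-Nd5, a large subunit of the membrane arm, in PV+ (log2 fold change -1.65, SE 0.304), SST+ (-1.27, SE 0.378), cerebral vGluT2+ (-4.45) and cerebellar vGluT2+ (-4.73) samples. Subunit mt-Nd2 lay at or near the median of the mRNAs, at -3.12 in PV+ and -5.08 in cerebral Gad2+ samples. For mt-Nd4 the depletion was smaller than the median in all 6 cell types, with -2.70 in PV+, -1.90 in SST+ and -4.96 in cerebral Gad2+ samples. The short mt-Nd4l, whose reading frame overlaps that of mt-Nd4, fell by 6.04 on the log2 scale in cerebral Gad2+ but by 2.71 in PV+ samples, and with the copy added mt-Nd4l changed by -5.69 and -2.79. For mt-Nd6 the IPs had 1.06, 2.96 and 5.46 CPM and the inputs 9.52, 22.4 and 55.2 CPM in PV+ samples, without overlap (log2 fold change -3.09, SE 0.372). In cerebral Gad2+ samples mt-Nd6 had 0.0265, 0.843 and 2.25 CPM in IPs and 16.2, 31.9 and 96.8 CPM in inputs (-5.69, SE 0.605). Fitted changes of mt-Nd3 ran from -5.93 in cerebral Gad2+ to -10.39 in cerebellar vGluT2+ samples, but with so many zeros they depend on the prior count of the fit. Summed with the copy, mt-Nd3 changed by -6.00 in cerebral Gad2+, -6.51 in PV+, -4.77 in SST+, -6.66 in cerebral vGluT2+, -7.64 in cerebellar Gad2+ and -7.57 in cerebellar vGluT2+ samples.

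For mt-Cytb, the only mitochondrially encoded subunit of complex III, at chrM:14145-15288, PV+ IPs had 250.0, 480 and 707 CPM against 1852, 3700 and 7015 CPM in inputs. SST+ IPs had 380, 558 and 2854 CPM against 2610, 3786 and 6127 CPM. In cerebellar vGluT2+ samples the values were 37.1, 78.6 and 199 CPM against 3012, 5851 and 10356 CPM. Again only the SST+ groups overlapped, and the log2 fold changes of mt-Cytb were -3.02 in PV+, -2.11 in SST+, -6.08 in cerebellar vGluT2+, -5.18 in cerebral Gad2+, -5.21 in cerebral vGluT2+ and -6.04 in cerebellar Gad2+ samples.

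In complex IV, mt-Co1 (chrM:5328-6872), the gene with the highest IP level per length in the cerebrum, was depleted less than most others. Cerebral Gad2+ IPs had 216, 610 and 1176 CPM against 5342, 9256 and 24659 CPM in inputs. PV+ IPs had 1268, 2450 and 3964 CPM against 3929, 13276 and 28630 CPM, and SST+ IPs had 1704, 2413 and 7191 CPM against 6337, 16027 and 18843 CPM. The PV+ groups overlapped at the edge and the SST+ groups through 1 IP, while the Gad2+ groups were apart. Changes of mt-Co1 were -4.35 in cerebral Gad2+, -2.42 in PV+, -1.99 in SST+, -4.74 in cerebral vGluT2+, -5.0 in cerebellar Gad2+ and -5.26 in cerebellar vGluT2+ samples on the log2 scale. The 2 other subunits, mt-Co2 and mt-Co3, changed by -3.30 and -4.59 in PV+ and by -2.30 and -3.62 in SST+ samples. With the copies added, mt-Co1 changed by -2.61 in PV+ samples, and mt-Co2 and mt-Co3 by -3.13 and -4.67 in PV+ and by -2.32 and -3.69 in SST+ samples. Adding the copies moved mt-Co2 from -4.77 to -5.48 in cerebellar Gad2+ and mt-Co3 from -5.38 to -6.10 in cerebellar vGluT2+ samples.

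Complex V transcripts were depleted more than the median mRNA in all 6 cell types. For mt-Atp6, a membrane subunit of ATP synthase, PV+ IPs had 32.4, 186 and 531 CPM against 753, 6648 and 19561 CPM in inputs, a log2 fold change of -5.16 (SE 0.608). SST+ IPs had 54.9, 311 and 3486 CPM against 1354, 6630 and 13194 CPM (-3.37, SE 0.715). The PV+ groups were apart and the SST+ groups were not. In the other cell types mt-Atp6 changed by -5.52 to -7.14 and mt-Atp8 by -5.92 to -7.39. The level of mt-Atp6 in an IP also rests on the split with Gm10925, and with this copy added mt-Atp6 changed by -4.95 in PV+ and -3.59 in SST+ samples.

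The rRNAs were depleted more than most mRNAs in PV+ samples, where their depletion was near that in cerebral Gad2+ samples. The same held for mt-Nd3 (-5.97 in PV+ against -5.93 in cerebral Gad2+), mt-Co3 (-4.59 against -4.69) and mt-Atp6 (-5.16 against -5.52). The other mRNAs were depleted less in PV+ than in cerebral Gad2+ samples. For mt-Rnr2, PV+ IPs had 68.8, 179 and 385 CPM against 5055, 8285 and 12324 CPM in inputs, and SST+ IPs had 183, 337 and 2502 CPM against 5138, 6109 and 11624 CPM. Both were without overlap, and the log2 fold changes were -5.36 (SE 0.326) and -3.64 (0.54). In cerebral Gad2+ samples mt-Rnr2 had 30.2, 74.0 and 358 CPM against 2945, 4384 and 5339 CPM, with a change of -5.20 (0.499), close to that in PV+ samples. The rRNAs made up 5.73% of mitochondrial counts at the median in PV+ IPs (2.85% to 7.95%) and 25.1% in PV inputs (14.7% to 36.2%). Expressed as log2 of mRNA over rRNA counts, the medians were 4.04 in IPs against 1.58 in inputs for PV+ and 3.35 against 2.01 for SST+ samples, without overlap in either. The corresponding medians were 3.06 and 2.20 for cerebral Gad2+, 2.77 and 2.15 for cerebral vGluT2+, 3.68 and 3.12 for cerebellar Gad2+ and 3.72 and 3.44 for cerebellar vGluT2+ samples.

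Along the genome the PV+ changes had a pattern. From the 5′ end of the + strand they were -5.08 for mt-Rnr1, -5.36 for mt-Rnr2, -3.67 for mt-Nd1, -3.12 for mt-Nd2, -2.42 for mt-Co1 and -3.30 for mt-Co2. They were larger again over the next stretch, with -4.89 for mt-Atp8, -5.16 for mt-Atp6, -4.59 for mt-Co3 and -5.97 for mt-Nd3, and smaller beyond it, with -2.71 for mt-Nd4l, -2.70 for mt-Nd4, -1.65 for mt-Nd5 and -3.02 for mt-Cytb. Genes with a chromosome 1 copy lie in both stretches, and mt-Atp8 has no annotated copy there. The pattern is a description of fitted values and was not tested.

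Differences between cell types were tested as interactions in 1 edgeR fit over all libraries, which treats IPs, inputs and regions of the same mouse as independent. Compared with PV+ neurons, the IP to input ratio of cerebral Gad2+ neurons was lower for 7 of 15 mitochondrial genes, where 22.8% of all genes were called lower. These were mt-Nd2 (log2 difference -1.77, SE 0.627), mt-Nd4l (-3.19, SE 0.912), mt-Nd4 (-2.09), mt-Nd5 (-3.20, SE 0.662), mt-Nd6 (-2.42), mt-Cytb (-2.01) and mt-Co1 (-1.80). The differences for mt-Rnr1 and mt-Rnr2, 0.09 (SE 0.646) and 0.28 (SE 0.665), were well within their errors. The same 7 genes were called higher in PV+ than in cerebral vGluT2+ neurons (23.8% of all genes), by 1.75 for mt-Nd2 to 2.86 for mt-Nd6. Compared with SST+ neurons, 12 genes were lower in Gad2+ neurons (22.6% of all genes), with the largest differences for mt-Nd4l (-3.88) and mt-Nd5 (-3.68), and mt-Nd3, mt-Co3 and mt-Atp6 did not pass. SST+ exceeded cerebral vGluT2+ neurons for 13 genes (21.7% of all genes), but for 8 when the SST+ IPs of highest share (control replicate 1 and HD replicate 2) were left out. With the copies added, the counts in these 4 comparisons were 8, 8, 13 and 14, through mt-Co2 between Gad2+ and PV+ (-1.32) and between PV+ and vGluT2+ neurons (1.61), mt-Atp6 between Gad2+ and SST+ (-2.05) and mt-Co3 between SST+ and vGluT2+ neurons (1.90). The differences of mt-Nd4l became -2.71 between Gad2+ and PV+ and -3.49 between Gad2+ and SST+ neurons. These comparisons share SST, PV, Gad2 or vGluT2 libraries.

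Between PV+ and SST+ neurons edgeR called none of the 15 genes (7.89% of all genes), with 2 at an unadjusted p under 0.05 and 2 called by DESeq2. No gene was called by edgeR or DESeq2, or had an unadjusted p under 0.05, between cerebral Gad2+ and vGluT2+ neurons (19.3% of all genes), between cerebellar Gad2+ and vGluT2+ neurons (47.2%) or between cerebellar and cerebral Gad2+ neurons (24.9%). Median differences of the mRNAs were 0.30, 0.30 and -0.77. Between cerebellar and cerebral vGluT2+ neurons only mt-Nd3 was called in this fit (-4.42, edgeR adjusted p = 0.0278, against 15.3% of all genes called lower). This call was absent with DESeq2 and when the copy was added (-1.12, adjusted p = 0.314). Both regions of these lines came largely from the same animals, with IPs of both from 12 of 12 Gad2 and 11 of 12 vGluT2 mice. In fits to the libraries of 1 line with the mouse as a block, 0 genes were called between the Gad2+ regions by edgeR (1 at an unadjusted p under 0.05, 22.3% of all genes called, median of the mRNAs -0.57). Between the vGluT2+ regions mt-Nd3 was not called in this fit (-3.80, edgeR adjusted p = 0.0947) and mt-Cytb was (-1.14, SE 0.35, adjusted p = 0.0197). Here 5 genes had an unadjusted p under 0.05, 21.2% of all genes were called and the median of the mRNAs was -0.95. Without the block, the same libraries gave 1 called mitochondrial gene, 1 at an unadjusted p under 0.05 and a median of -0.93.

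Markers of some other cells moved with these differences and those of microglia did so only in part. The summed level of 5 astrocyte markers (Aqp4, Gfap, Slc1a3, Aldh1l1 and Gja1) had medians of 99.5 and 59.7 CPM in cerebral Gad2+ and vGluT2+ IPs, and 230 and 348 CPM in PV+ and SST+ IPs, against 764 to 875 CPM in cerebral inputs. For 5 oligodendrocyte markers the medians were 678 and 381 CPM in Gad2+ and vGluT2+ IPs, 1484 in PV+ and 2822 CPM in SST+ IPs, against 4473 to 4735 CPM in inputs. For 5 endothelial markers they were 9.64 and 5.56 CPM in Gad2+ and vGluT2+ IPs and 26.9 and 35.0 CPM in PV+ and SST+ IPs, against 80.4 to 95.9 CPM in inputs. The 5 microglia markers had a higher median in Gad2+ IPs (106.5 CPM) than in PV+ (52.0) and SST+ IPs (70.1), and the lowest in vGluT2+ IPs (9.75), against 218.5 to 303 CPM in inputs. The SST+ IPs with the highest mitochondrial shares also had the highest astrocyte levels of that group, 476 and 486 CPM, where the other 7 had 280 to 427 CPM. Other lists did not single out both libraries, since HD replicate 2 had 3230 CPM of oligodendrocyte markers against 3441 CPM in control replicate 6, and HD replicate 4, with a share of 0.893%, had the highest microglia level (94.4 CPM, against 93.1 and 89.7 CPM) and more endothelial signal (51.0 CPM) than HD replicate 2 (49.8 CPM). Whether RNA of other cells took part in the mitochondrial levels of PV+ and SST+ IPs was not tested. PV+ IPs had been pooled from duplicate precipitations, which cannot be told apart from the cell type.

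Nuclear genes of the same complexes were mostly not lower in the Gad2+ and vGluT2+ IPs, whereas in SST+ IPs most of them were lower, as the mitochondrial ones were. Of 74 nuclear-encoded subunits of complexes I, III, IV and V, 54 were higher and 0 lower in cerebral Gad2+ IPs than in inputs (median log2 0.56, against 0.09 over all genes), and 35 were higher and 1 lower in cerebellar Gad2+ IPs (0.39). In vGluT2+ IPs 19 were higher and 2 lower in the cerebrum (0.12) and 20 higher and 1 lower in the cerebellum (0.16). In PV+ IPs 17 were higher and 29 lower (-0.21), where 35.0% of all genes were called lower, and in SST+ IPs 4 were higher and 54 lower (-0.74), where 30.4% of all genes were called lower. Among all genes tested, 25.0% were called higher in cerebral Gad2+, 29.2% in cerebellar Gad2+, 22.6% in cerebral vGluT2+, 32.3% in cerebellar vGluT2+, 35.0% in PV+ and 30.5% in SST+ samples. The lowest median of the nuclear subunits was in SST+ IPs, where the mitochondrial mRNAs were least depleted. Of 31 nuclear genes for mitochondrial transcription, replication and RNA handling, 12 to 23 were higher and 0 to 6 lower in each cell type. Mterf2, a factor of the mitochondrial transcription termination family, rose by 1.57 in cerebral Gad2+, 1.93 in PV+, 1.81 in SST+, 1.44 in cerebral vGluT2+, 1.33 in Gad2+ and 1.26 in vGluT2+ IPs of the cerebellum on the log2 scale. Pnpt1, the mitochondrial polynucleotide phosphorylase, rose by 2.06 in PV+ and 1.87 in SST+ IPs.

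The effect of HD was examined first within the IPs, where edgeR called no mitochondrial gene in any of the 6 cell types. DESeq2 called none either, and genes at an unadjusted p under 0.05 numbered 0 in cerebral Gad2+, 0 in PV+, 1 in SST+, 0 in cerebral vGluT2+ and cerebellar Gad2+ and 1 in cerebellar vGluT2+ IPs. Few genes of any kind were called, namely 0.0373% in cerebral Gad2+, 0.0302% in PV+, 1.99% in cerebellar vGluT2+ and 0% in the other 3 IPs. Median log2 differences of the mRNAs were -0.33 in cerebral Gad2+, 0.05 in PV+, 0.84 in SST+ (0.03 without HD replicate 2, and 0.41 without both this library and control replicate 1), -0.72 in cerebral vGluT2+, -0.04 in Gad2+ and -0.06 in vGluT2+ IPs of the cerebellum, where mt-Nd3 did not pass the filter on low counts and was not tested. For mt-Nd1 the differences were -0.26 (SE 0.569), -0.03 (0.341), 0.99 (0.588), -0.71 (0.557), -0.04 (0.209) and 0.02 (0.387) in the same order. None of these passed the test, and the errors, up to 0.588 for mt-Nd1, set what could be detected.

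In SST+ IPs all 13 mRNAs had positive differences in HD without passing the test, with mt-Cytb at 0.83 (SE 0.552), mt-Co1 at 0.53 (0.357), mt-Atp6 at 1.31 (0.891) and mt-Rnr1 at 1.5 (0.7). Their sizes and signs depended on the SST+ IPs of highest mitochondrial share, 1 in each genotype. Without HD replicate 2 alone 7 mRNAs had positive and 6 negative differences, with mt-Cytb at -0.10, mt-Co1 at 0.07, mt-Atp6 at -0.45 and mt-Rnr1 at 0.07. Without both HD replicate 2 and control replicate 1, 12 mRNAs had positive differences with a median of 0.41, and 5 mitochondrial genes had an unadjusted p under 0.05 with 0 called by edgeR. Without the 3 control mice of the other number series, which leaves 2 controls, the 13 differences were positive with a median of 0.32 and 0 called, and 1 gene had an unadjusted p under 0.05. The counts of mt-Nd3 were 0 in all 5 controls and 278, 546, 0 and 501 in the 4 HD libraries, so no fold is given. Summed with the copy, mt-Nd3 differed by 1.49 (SE 0.862, edgeR adjusted p = 1). In cerebellar vGluT2+ IPs the largest difference of a gene without a copy was that of mt-Nd5, -0.96 (SE 0.409, edgeR adjusted p = 0.284).

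In cerebral total RNA, with the Cre line as a covariate, edgeR called none of 16 mitochondrial genes tested between 12 HD and 13 control libraries (0.716% of all genes called), none had an unadjusted p under 0.05, and DESeq2 called none. All 13 mRNAs were nominally higher in HD, by 0.03 for mt-Nd3 to 0.51 for mt-Co2 (SE 0.25), with a median of 0.25. The SEs of the mRNAs were 0.25 to 0.505.

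In cerebellar total RNA, from 7 HD and 7 control mice, 3 mRNAs were called lower in HD. Among all genes 22.9% were called, with 11.4% lower, and 6 mitochondrial genes had an unadjusted p under 0.05. The called genes were mt-Nd5 (log2 fold change -1.22, SE 0.396, edgeR adjusted p = 0.042), mt-Nd4l (-1.09, SE 0.363, adjusted p = 0.0444) and mt-Cytb (-0.79, SE 0.271, adjusted p = 0.0492). DESeq2 called 4. Their neighbour mt-Nd4 changed by -0.80 (SE 0.351, adjusted p = 0.0973). The rRNAs went in the other direction without being called, by 0.46 (SE 0.228) for mt-Rnr1 and 0.59 (SE 0.252) for mt-Rnr2, and mt-Nd3 was at 0.91 (adjusted p = 0.0611). Adding the copy left mt-Nd4l at -1.10 (adjusted p = 0.0499).

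Per library, mt-Cytb had 4730, 10295 and 4506 CPM in controls and 4225, 2983 and 7976 CPM in HD mice of the Gad2 line. In the vGluT2 line it had 10356, 7539, 6453 and 9974 CPM in controls and 5250, 4525, 3012 and 3708 CPM in HD mice. The genotypes overlapped in the Gad2 line and were apart in the vGluT2 line. For mt-Nd5 the Gad2 line had 1078, 4470 and 1781 CPM in controls and 1559, 831 and 2911 CPM in HD mice, and the vGluT2 line had 4200, 3101, 1951 and 4192 against 1498, 939, 601 and 997 CPM. For mt-Nd4l the Gad2 line had 385, 1007 and 243.5 CPM in controls and 191, 264 and 606 CPM in HD mice, and the vGluT2 line had 823, 474, 607 and 1044 CPM in controls and 431.5, 220, 190 and 282 CPM in HD mice. Again the vGluT2 libraries were apart by genotype, and those of the Gad2 line were not. Within lines the differences of mean log2 CPM were -1.06 for mt-Cytb, -1.40 for mt-Nd4l and -1.75 for mt-Nd5 in the vGluT2 line, and -0.38, -0.54 and -0.40 in the Gad2 line. The difference between lines was not tested.

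Other measures moved with genotype in the same vGluT2 libraries. In HD and control, respectively, the rRNA part of mitochondrial counts was 8.72% to 20.7% and 6.50% to 8.11%, the part of nuclear protein-coding counts on transcripts under 700 bases 16% to 17.7% and 14.3% to 15.3%, and the summed level of Slc17a6 and Slc17a7 1202 to 1388 and 515 to 750 CPM. The 5 microglia markers summed to 129 to 141 CPM in HD and 74.8 to 86.1 CPM in controls, and the 3 Purkinje cell markers to 1266 to 1931 and 2138 to 2576 CPM. None of these ranges overlapped. Those of the 5 oligodendrocyte markers (2891 to 3936 CPM in HD, 4118 to 5026 in controls) and 3 PV markers (1945 to 2593 and 1406 to 1811 CPM) did not either. The 3 granule cell markers went the other way from Slc17a6 and Slc17a7, with medians of 723 CPM in HD and 1345 CPM in controls. Their ranges overlapped (511 to 1075 and 1022 to 1682 CPM). The part of these measures in the lower mitochondrial mRNAs was not tested. Of the 74 nuclear-encoded subunits, 29 were higher and 0 lower in HD in cerebellar total RNA (median 0.43, against -0.01 over all genes and 11.5% of all genes called higher), for example Cox4i1 of complex IV at 0.82 (SE 0.168). In every other HD comparison 0 of 74 subunits were called. Of the 31 genes for mitochondrial transcription, replication and RNA handling, 2 were higher and 3 lower in HD in cerebellar total RNA (median -0.17), shares no larger than the 11.5% and 11.4% of all genes. The called genes of largest change were Mterf1a (-1.11, SE 0.298, edgeR adjusted p = 0.0295) and Mterf2 (-0.90, SE 0.272, adjusted p = 0.0357).

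The 3 calls in cerebellar total RNA were lost in most fits that left out libraries. Without the libraries in which mt-Atp6 held under 40% of its joint counts with its copy (4 of the 14) edgeR called 0 genes. A call lost with fewer libraries does not show that the difference became smaller. In the vGluT2 line the libraries that remained were still apart by genotype for all 3 genes. Leaving out single libraries gave 0 to 6 called genes, and 11 of 14 such fits gave 0. Calls remained only without control Gad2 replicate 1, control Gad2 replicate 3 or HD Gad2 replicate 3. With the replicate number as a block no gene was called.

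**Figure D5:**
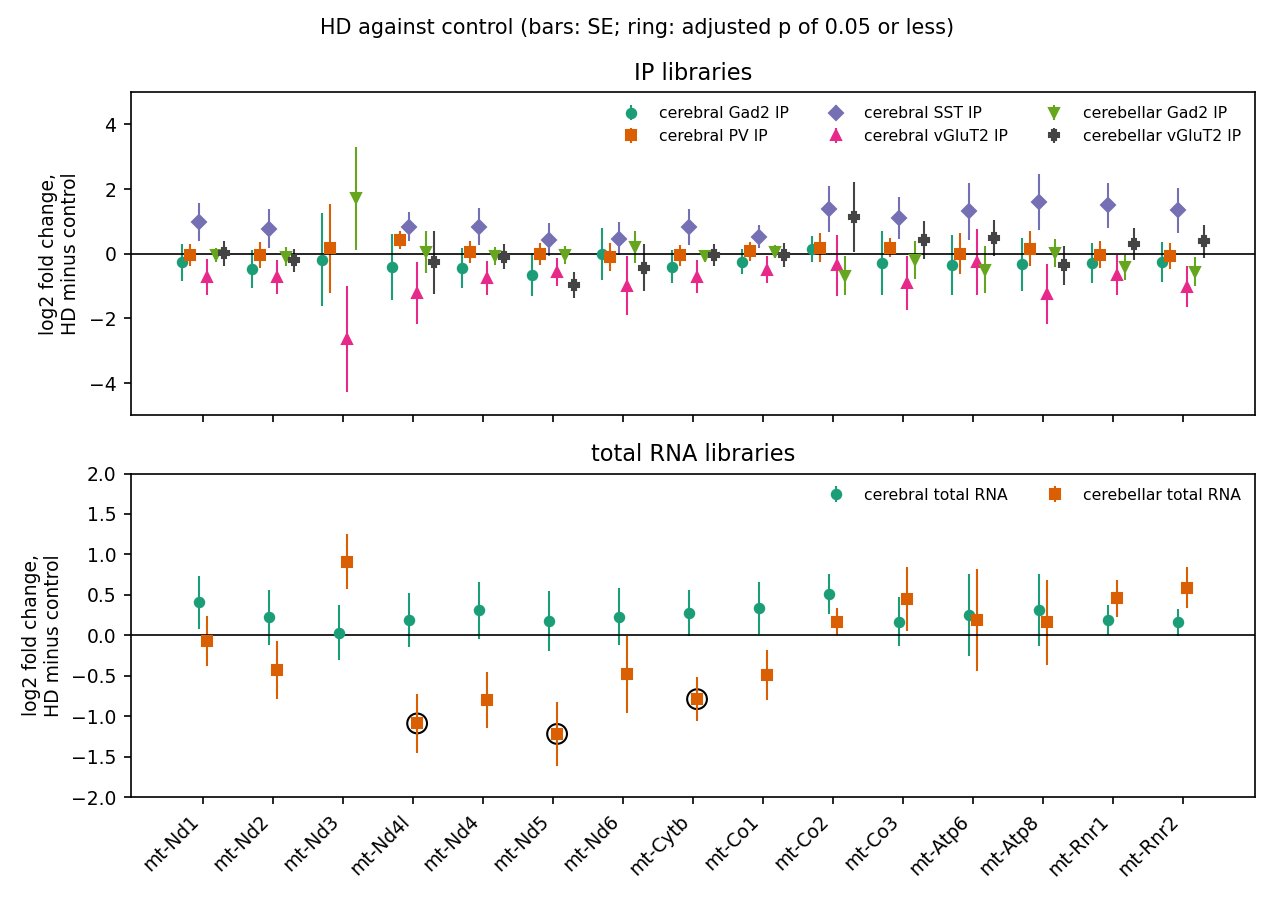
Log2 fold change of HD minus control for the 13 mRNA and 2 rRNA genes in the IPs of 6 cell types (top) and in total RNA of both regions (bottom), with bars for the SE and rings at adjusted p-values of 0.05 or less. Rings appear at mt-Nd4l, mt-Nd5 and mt-Cytb in cerebellar total RNA, and mt-Nd3 is not drawn in SST+ IPs, with all controls at 0, and in cerebellar vGluT2+ IPs, where it was not tested.

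Cerebellar and cerebral total RNA were compared in the Gad2 and vGluT2 lines, which have both regions, in 14 and 12 libraries. edgeR called no mitochondrial gene although 54.1% of all genes differed, 1 gene had an unadjusted p under 0.05, and DESeq2 called 1. Of the 13 mRNAs, 12 were nominally higher in the cerebellum (median 0.41), with mt-Nd1 at 0.50 (SE 0.298) and mt-Cytb at 0.46 (SE 0.312), while mt-Rnr1 and mt-Rnr2 were nominally lower, at -0.39 (SE 0.173) and -0.35 (SE 0.179). Only 6 mice, 1 of the Gad2 line and 5 of the vGluT2 line, gave total RNA of both regions. In these mice, with the mouse as a block, 8 mRNAs were called higher in the cerebellum (26.5% of all genes), with a median of 1.09 over the mRNAs. Without the block, the same 6 mice gave 7 calls (26.5% of all genes) and a median of 1.07, so the higher count came with the choice of mice. Their cerebral inputs of control Gad2 replicate 3, control vGluT2 replicate 2 and HD vGluT2 replicate 2 had low mitochondrial shares (2.05%, 2.05% and 2.85%). In these, mt-Atp6 held under 40% of its joint counts with its copy. Among their cerebellar inputs this held only for control vGluT2 replicate 3 (mitochondrial share 4.13%). The part of this imbalance in the regional difference was not tested. The genes called with the block were mt-Nd1 (1.14), mt-Nd2 (1.15), mt-Nd4l (0.90), mt-Nd4 (1.26), mt-Nd5 (1.36), mt-Cytb (1.07), mt-Co1 (1.11) and mt-Co2 (0.80), of which mt-Nd4l was not called without it (0.86, edgeR adjusted p = 0.0684).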

How the data were processed

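The authors aligned paired reads of poly(A)-selected, stranded libraries with STAR and quantified genes with Salmon in nf-core/rnaseq 3.0, and what they deposited are estimated counts per gene, not normalized. Read pairs were 100 bases long, with 3 HD IP libraries sequenced again at 150 bases. The submitters' processing notes name GRCm38.p6. Of 55401 mouse genes, 55141 were found in GENCODE M21, which gave types, positions and sequences, and 8.57% of the values were not whole. Estimated counts were rounded, 92 spike-ins (at most 4.45% of a library) were left out, and genes with a mean count over 10 were tested with edgeR 4.0.16 in R 4.3.3 (TMM, quasi-likelihood test, Benjamini-Hochberg adjustment over all genes tested). HD IPs were compared within a cell type, total RNA with the Cre line as a covariate, IP and input with genotype, and regions with both. An SE was taken as the size of the log2 fold change over the root of its F statistic. Nuclear copies were found with BLAST+ 2.17.0+ (at least 200 bases and 90% identity), and those over 99% identical were summed with their gene as an alternative.

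Replicates were separate mice, and no replicate pair had a chi-square per degree of freedom below 7.96, so all were kept as separate. All 13 mRNA and 2 rRNA genes are named in every comparison or covered by its counts (mt-Nd3 was not tested for HD in cerebellar vGluT2+ IPs), and tRNAs where they passed the test. The genes, the marker and pathway lists and the tests were chosen with earlier results of these data known. Fits were tested on simulated data. Alternatives were DESeq2 1.42.0, its size factors, CPM without TMM, no filter, protein-coding genes only, control mice only and all inputs of a region. Others were a replicate or mouse block, omitting the re-sequenced or a single library, and library sizes without mitochondrial genes. For IP against input, single libraries of groups of 6 were not omitted. Summing copies, fitting the mice that gave both regions without the mouse block, region differences within 1 line with the mouse as a block, leaving out SST control mice of another number series, leaving out total RNA libraries of low mt-Atp6 share and leaving out both SST+ IPs of highest mitochondrial share were chosen after seeing the data.

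Whether same-numbered control and HD replicates pair was checked by correlating their deviations from the group means. The correlations ran from -0.827 to 0.954, and in no comparison did all pairs exceed 0.1, so the numbers were not taken as pairs.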

Additional observations from a re-analysis of the deposited data

Results flagged for a closer look

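In groups of 4 to 6 libraries, 1 library stood apart from the rest in 38 of 118 groups and measures tested. Chance alone would flag about 1 in 20 if values were normally distributed, and the values were not log-transformed. The measures are also not independent of each other, because a library with a high mitochondrial share is high for most of these genes. The mitochondrial share stood apart in control cerebral Gad2+ IP replicate 1 (0.437%), control SST+ IP replicate 1 (1.81%), HD cerebral Gad2+ IP replicate 1 (0.416%), HD SST+ IP replicate 2 (3.42%), HD cerebellar vGluT2+ IP replicate 2 (0.275%) and HD cerebral vGluT2+ IP replicate 2 (0.259%), each above its group.

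In the same 6 libraries and order, mt-Nd1 stood apart at 401, 1531, 356, 2889, 205 and 226 CPM. For mt-Rnr2 the values were 358, 845, 351, 2502, 189 and 236 CPM, and control cerebellar Gad2+ IP replicate 5 was apart at 199 CPM. For mt-Atp6 they were 404, 1352, 367, 3486, 183 and 236 CPM, and control cerebellar vGluT2 input replicate 3 was apart below its group at 734 CPM. For mt-Cytb 5 of them stood apart, at 346, 1478 and 328 CPM in control cerebral Gad2+ replicate 1, control SST+ replicate 1 and HD cerebral Gad2+ replicate 1, and at 199 and 216 CPM in the HD cerebellar and cerebral vGluT2+ libraries. For mt-Co1 control SST+ IP replicate 1 stood apart at 5194 CPM.

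For mt-Nd3, single libraries above the rest were control cerebellar Gad2+ IP replicate 2 (1.22 CPM), control cerebral Gad2+ IP replicate 1 (4.94), control SST input replicate 1 (288), control cerebral vGluT2+ IP replicate 6 (7.97), HD PV+ IP replicate 5 (5.63) and HD cerebellar vGluT2+ IP replicate 4 (0.862), which rest on the split with the copy.

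IP to input ratios differed between cell types by the edgeR interaction test for 7 genes between cerebral Gad2+ and PV+, 12 between cerebral Gad2+ and SST+, 7 between PV+ and cerebral vGluT2+, 13 between SST+ and cerebral vGluT2+ (8 without both SST+ IPs of highest share) and 1 between cerebellar and cerebral vGluT2+ neurons. This single gene, mt-Nd3, was not called with DESeq2, with the copy added (-1.12, edgeR adjusted p = 0.314) or with the mouse as a block.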

How the results depend on the processing

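The lower levels in IPs kept their direction and call for all 13 mRNAs and both rRNAs under every alternative run, mouse block included, and no called value changed sign. The median of the mRNAs in cerebral vGluT2+ samples moved to -4.28 with control mice only, and without a filter 23 genes were called in cerebellar Gad2+ samples. Single libraries were left out of these comparisons only from groups of fewer than 6. They moved these medians to -5.32 and -4.65 at most in cerebral Gad2+ and to -5.48 and -4.95 in cerebral vGluT2+ samples, where only inputs were left out. In PV+ samples, where no control IP was left out, the medians moved to -3.36 and -2.98 at most, and in SST+ samples to -2.71 and -2.06. The dependence of the medians on single IPs of the groups of 6 was not tested. In HD SST+ IPs 1 gene, mt-Nd3, was called without a filter, and 0 to 1 when single libraries were left out (1 without HD replicate 3). In cerebellar total RNA of HD mice the replicate block gave 0 calls, leaving out total RNA libraries of low mt-Atp6 share gave 0, and leaving out single libraries gave 0 to 6. Such counts of calls do not show that the differences themselves became smaller. The block called 0 mitochondrial genes in every other HD comparison. Between regions DESeq2 gave 1, the mouse block 8, the same 6 mice without the block 7, leaving out libraries of low mt-Atp6 share 1 and leaving out single libraries 0 to 2. DESeq2 called 2 genes between PV+ and SST+ neurons, 8 remained between SST+ and cerebral vGluT2+ neurons without both SST+ IPs of highest share, and between the vGluT2+ regions 0 were called with DESeq2, with copies summed and without libraries of low mt-Atp6 share. With copies the median share rose to 8.26% in SST and 8.88% in cerebellar vGluT2 inputs, and libraries at 0 fell to 0 for mt-Nd3, mt-Nd4l, mt-Co2, mt-Co3 and mt-Atp6. Of the values of single genes, 2609 kept their side of the threshold, 36 crossed to a call and 21 lost one, and 2788, 17 and 33 did so when single libraries were left out. In the IPs the low counts of mt-Nd6, mt-Nd3 and the tRNAs limit their precision, and no cause of these shifts was tested.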

Other observations

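Total RNA libraries differed in how the joint counts of mt-Atp6 and its copy Gm10925 were split. In 10 of 39 inputs mt-Atp6 held 25.1% to 37.9% of the joint counts, and in the other 29 it held 43.4% to 97.8%. These 10 were 5 HD and 5 control libraries with at most 1 in a group. They also had low levels of mt-Atp8, which has no annotated copy (82.2 to 326 CPM, against 582 to 2537 CPM in the others), and of mt-Atp6 and copy together (2167 to 4808 against 5907 to 21621 CPM). The shares of mt-Nd4l (88.1% to 99.5% against 47.6% to 83.3%) and mt-Nd3 (7.90% to 33.5% against 1.80% to 9.24%) in their joint counts were high in the same libraries. The mitochondrial share of counts was also low in these libraries (1.92% to 4.13%, against 3.71% to 10.1% in the others). The part of nuclear protein-coding counts on transcripts under 700 bases was 15.3% to 18.5% there and 14.0% to 17.9% in the others. The 40% boundary was chosen after the values were seen.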
